A study of Homo sapiens with 6 samples.

Results

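The genes described are 39 genes of the type I interferon response and of RNA sensing, chosen by name for their known function, in NTERA2/D1 cells, an established human testicular teratocarcinoma line. They were found through the platform annotation of a 3' expression array, where 71 of the 54675 probe sets named 1 of them alone and 38 of the 39 genes were measured, out of 19775 genes in all. STAT2, a transcription factor of the pathway, was not analysed here, because no probe set was matched to it. The control group was 3 arrays from cells given nonspecific scrambled siRNA (control), and the other group was 3 arrays from cells given siRNA against human VAMP7 (knockdown). Transfection began 24 h after plating and lasted 72 h in both groups, so every array came from cells that had received siRNA. Untransfected cells were not analysed here, and the baseline given below is that of transfected cells.

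Double-stranded RNA in the cytosol is bound by the sensors RIG-I (RIGI, listed as DDX58) and MDA5 (IFIH1), which signal through the mitochondrial adaptor MAVS to IRF3 and IRF7, while TLR3 senses it in endosomes and PKR (EIF2AK2) stops translation on binding it. The interferon that is made then acts through IFNAR1 and IFNAR2 and a STAT2 and IRF9 complex on a DNA element called ISRE, and this turns on a large set of antiviral genes. Pluripotent and embryonal carcinoma cells are known for a weak interferon response, while some antiviral genes are active in them without it.

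VAMP7, the gene targeted, read 2487, 2617 and 2741 intensity units in control and 136.8, 175.4 and 148.6 in knockdown, and it was the 1 gene called over all 19775 (limma, adjusted p = 8.65e-05). The arrays appeared to have been scaled to a common mean, and their median intensities ran from 58.85 to 67.54. Knockdown replicate 1 had the lowest mean correlation with the other arrays, at 0.9879 against 0.99 to 0.991. It held the highest value of the 6 arrays for 26.7% of all genes and the lowest for 20.4%, the largest share at both ends. Of the pluripotent cell markers 14 of 14 measured were above background in control and 12 in knockdown. Of the leukocyte markers 1 of 13 was above it in control (CD79A, named after its value was seen). The fibroblast markers were above background for 5 of 10, which were COL1A1, LUM, PDGFRA, PDGFRB and THY1 (named after their values were seen). The summed intensity of the leukocyte list was 345.2 to 554.1 in control and 359.2 to 706.0 in knockdown, and that of the fibroblast list was 4575 to 4915 and 4494 to 5459. These sums hide single genes. Groups did not overlap for 1 pluripotent marker higher (TERT) and 2 lower (NANOG and GDF3). For leukocyte markers it was 3 higher (CSF1R, ITGAX and LILRA4) and 0 lower, but none of the 3 was above background in control. Their control means were 32.9, 6.09 and 5.67, and their knockdown means were 53.7, 18.7 and 8.6. For fibroblast markers it was 0 higher and 2 lower (PDGFRA and LUM). PDGFRA read 221.9, 181.4 and 213.4 in control and 85.7, 131.4 and 119.5 in knockdown on its probe set of highest mean. Its log2 fold change was -0.66 with that probe set and -0.25 with the mean of its probe sets. Groups did not overlap for 13.0% of all genes, and limma called 0 genes of these lists. The part of these lists in the results was not tested. All 6 arrays came from the 1 cell line. In its bulk RNA, a change in every cell and a change in some cells cannot be told apart.

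Many of these genes carry the ISRE core in their promoter, among members above background and among members not above it. The core was searched as GAAA, any 2 bases and GAAA again on both strands, where the reverse has TTTC in place of each GAAA, from 250 bases before to 50 after the gene start in RefSeq promoters of GRCh38.p14. Matches could overlap each other. Of the 39 genes, 30 had a promoter there, and 19 of these (63.3%) held the core, against 996 of all 27305 promoters (3.65%). The share was 16 of 21 for interferon-induced genes and 3 of 9 for sensing and signalling genes, the latter being EIF2AK2, IFIH1 and TLR3. The core stood in 10 of 16 promoters of members above background in control and in 9 of 13 of those not above it. These counts pool the 2 classes, which differed. Among induced genes, IFI16 alone of those above background lacked the core, and IFI35, OAS1, RSAD2 and XAF1 of those not above it did. Among sensing and signalling genes, EIF2AK2 alone of those above background held it, as did IFIH1 and TLR3, which were not above it. The stretches below run from 170 bases before the start to the base before it, on the gene's coding strand, with the core in capitals. They are shown because the first pair belongs to members that were bright in these cells and the second pair to members at background. They are BST2 at chr19:17405631-17405800 (minus strand), IFITM3 at chr11:320861-321030 (minus strand), IFIT1 at chr10:89392453-89392622 (plus strand) and IFI44L at chr1:78620278-78620447 (plus strand).
BST2: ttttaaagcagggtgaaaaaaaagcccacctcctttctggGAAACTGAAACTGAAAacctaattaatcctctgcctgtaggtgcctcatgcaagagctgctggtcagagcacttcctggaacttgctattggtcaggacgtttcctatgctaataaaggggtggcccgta
IFITM3: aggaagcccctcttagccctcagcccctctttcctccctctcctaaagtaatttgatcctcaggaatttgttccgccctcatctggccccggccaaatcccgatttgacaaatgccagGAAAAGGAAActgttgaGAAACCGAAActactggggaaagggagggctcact
IFIT1: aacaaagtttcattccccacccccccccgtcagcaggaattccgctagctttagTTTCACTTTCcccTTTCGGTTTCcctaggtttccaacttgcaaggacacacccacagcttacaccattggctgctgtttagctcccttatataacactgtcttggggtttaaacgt
IFI44L: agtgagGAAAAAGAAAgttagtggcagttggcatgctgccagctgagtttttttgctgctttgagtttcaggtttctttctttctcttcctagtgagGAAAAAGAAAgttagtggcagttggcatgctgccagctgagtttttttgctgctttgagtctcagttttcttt
Each of the 4 holds the core 2 times. In BST2 the copies begin 130 and 124 bases before the start and share bases, and in IFI44L they lie 91 bases apart within a run of 66 bases that occurs 2 times in the stretch. A match describes the letters and not a site bound in these cells.

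At baseline the sensing and signalling genes were mostly above background, and about as many of the induced genes were at background as above it. Since the arrays give no detection calls here, background was taken from 107 probe sets for 82 olfactory receptor genes, which are nearly silent outside the nose. Their 95th percentile was 56.6 to 67.5 intensity units on the control arrays and 54.9 to 61.7 on the knockdown arrays. A gene was called above background where a probe set of its own exceeded this limit on all 3 arrays of a group, which held for 1 of the 82 olfactory receptor genes in control. By this rule 22 of 38 members (57.9%) were above background in control, against 61.2% of all genes tested. The count was 9 of 11 for sensing and signalling genes and 13 of 27 for induced genes. The RNA sensors themselves gave 2 of 4, and the adaptor, receptor chains and measured transcription factors were all above background. Intensities of different probe sets depend on their probes, so the 2 classes are compared by these counts alone and not by their levels. In knockdown 20 members were above background, all of them among the 22, against 61.9% of all genes.

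**Figure D1:**
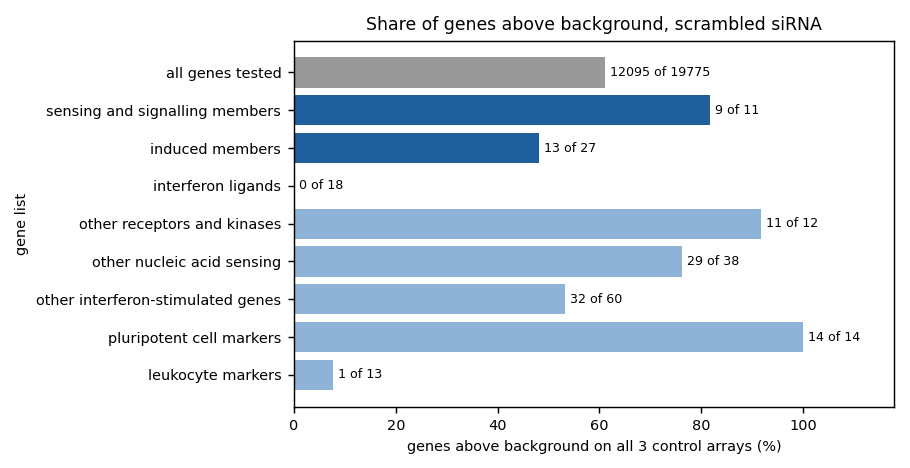
Share of genes (%, horizontal axis) above the olfactory receptor limit on all 3 control arrays, for all genes tested, the 2 classes of members and the pathway and marker lists, with counts beside the bars. Sensing and signalling members stand at 9 of 11, induced members at 13 of 27, and interferon ligands at 0 of 18.

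Among the RNA sensors, PKR was far above background and MDA5 was not above it. EIF2AK2, the kinase PKR, read 2736, 2502 and 2628 in control and 3037, 2369 and 2420 in knockdown. The knockdown values lay on both sides of the control values. RIGI read 110.0, 155.4 and 168.0 in control and 224.4, 176.7 and 147.3 in knockdown, and 2 of its 3 probe sets were above background in control. Its groups overlapped, and knockdown replicate 1 was the highest array. TLR3 lay at the limit, with 58.0, 76.8 and 50.3 in control and 55.9, 42.7 and 90.5 in knockdown. IFIH1, the sensor MDA5, read 14.0, 22.6 and 6.46 in control and 10.2, 17.2 and 1.35 in knockdown, and none of its 3 probe sets was above background in either group.

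MAVS, the mitochondrial adaptor that both cytosolic sensors need, was above background on all 4 of its probe sets. The probe set of highest mean read 1388, 1287 and 1060 in control and 1995, 1474 and 1579 in knockdown. All 3 knockdown arrays lay above all 3 control arrays. Its log2 fold change was 0.42 (SE 0.15, 95% interval 0.05 to 0.78), with an unadjusted p of 0.0298 and an adjusted p of 0.728 in limma, so it was not called. The other 3 probe sets gave 0.17, 0.19 and 0.42, all above 0, and the groups of 1 of these did not overlap. Without knockdown replicate 1 the value was 0.29.

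Both chains of the interferon receptor were present, and their probe sets went in different directions. For IFNAR2, the chain whose tail binds STAT proteins, the brightest probe set read 911.7, 927.0 and 924.8 in control and 833.4, 791.3 and 737.4 in knockdown. All 3 knockdown arrays were lower, with a log2 fold change of -0.22 (SE 0.09, unadjusted p = 0.0498, adjusted p = 0.745 in limma). The other 2 IFNAR2 probe sets gave 0.14 and 0.41, and the mean over the probe sets gave 0.11, so the direction depended on the probe set. IFNAR1, the other chain, read 218.2, 298.4 and 365.4 in control and 295.8, 241.9 and 261.3 in knockdown, where all knockdown values fell within the control range. Its other 3 probe sets gave log2 fold changes of -0.14, -0.28 and 0.31, and the groups of the one at -0.28 did not overlap.

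The 4 measured transcription factors were all above background in both groups. IRF3, which is made constitutively and activated by phosphorylation, read 657.7, 644.7 and 585.0 in control and 745.9, 594.6 and 702.4 in knockdown. IRF7, which interferon induces in most cells and which amplifies the response, read 187.1, 182.8 and 163.8 in control and 178.3, 162.9 and 158.7 in knockdown. IRF1, an activator induced by several cytokines, read 200, 137.8 and 170.9 in control and 193.3, 184.7 and 200.2 in knockdown. The groups overlapped for each of the 3. IRF9, the DNA-binding partner of STAT2, read 145.6, 156.2 and 160.2 in control and 200.4, 199.8 and 134.2 in knockdown. For IRF9, 2 knockdown arrays were above and 1 below all control arrays.

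The IFITM family, membrane proteins that block virus entry by fusion, gave strong signals, and the labels name no interferon treatment. IFITM1 read 9129, 9718 and 11156 in control and 10692, 8763 and 8553 in knockdown, or 162 times the background limit in control. IFITM3 read 11047, 11879 and 12334 in control and 12192, 9984 and 10076 in knockdown, 190 times the limit. The groups of both genes overlapped. IFITM2 read 6090, 6319 and 6326 in control and 5270, 5624 and 5881 in knockdown, so that all knockdown arrays were lower (log2 fold change -0.16, SE 0.09, unadjusted p = 0.124, adjusted p = 0.803 in limma). The 3 genes are close paralogs, and another probe set names IFITM1 and IFITM2 together, so signal may be shared among them and no single gene's level is certain.

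In contrast with IFITM, the IFIT family, cytosolic proteins that bind foreign RNA, was at background apart from 1 member. IFIT5 read 144.2, 120.0 and 160.5 in control and 94.8, 155.9 and 164.9 in knockdown. IFIT1, IFIT2 and IFIT3, which are among the most strongly induced genes of an interferon response, had knockdown means of 12.3, 18.5 and 35.6. The control means of IFIT1 and IFIT2 were 9.80 and 36.1, and IFIT3 read 64.0, 72.5 and 13.5 in control. None of these 3 was above background in either group, although IFIT3 exceeded the limit on 1 control array.

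The OAS family, made of enzymes that are switched on by double-stranded RNA to activate RNase L and of the related OASL, which lacks that activity, had 1 member above background in control. OAS3 read 85.9, 106.1 and 82.5 in control and 56.9, 143.0 and 98.1 in knockdown, just inside the limit in control and below it on knockdown replicate 1. OASL read 66.3, 74.8 and 74.2 in control, just outside the limit because of replicate 1, and 40.3, 32.7 and 10.3 in knockdown. All 3 knockdown arrays of OASL were lower (log2 fold change -0.67, SE 0.16, 95% interval -1.04 to -0.29, unadjusted p = 0.00414, adjusted p = 0.565 in limma), and it was not called. Its other probe set gave -0.01, with 44.4, 50.2 and 28.8 in control and 98.0, 42.7 and 3.26 in knockdown, and the mean over both gave -0.34. OAS1 and OAS2 were not above background in either group. Their probe sets of highest mean had control means of 13.4 and 43.0 and knockdown means of 4.93 and 39.4, with overlapping groups. The other OAS1 probe set, also under the limit, went the other way without overlap (log2 fold change 0.21 against -0.19). It read 4.64, 4.63 and 1.94 in control and 9.54, 13.2 and 13.9 in knockdown.

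Of the other 16 induced genes, 8 were above background in control. BST2, the tetherin that holds budding virus at the cell surface, read 4006, 4031 and 4734 in control and 4478, 3931 and 4061 in knockdown. IFI16, a nuclear DNA sensor, read 1229, 1075 and 1148 in control and 1179, 1138 and 1246 in knockdown. HERC5, the ligase that attaches ISG15 to proteins, read 993.3, 917.7 and 1024 in control and 974.8, 857.9 and 974.7 in knockdown. In each of these 3 the groups overlapped, and all were over 10 times the limit in control, as were 10 of the 22 members above background.

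ISG15, a ubiquitin-like protein, read 340.9, 314.1 and 307.7 in control and 325.4, 377.4 and 322.4 in knockdown. USP18, the protease that removes it and that also restrains receptor signalling, read 123.8, 136.2 and 102.5 in control and 91.5, 114.3 and 96.6 in knockdown. For USP18, 2 knockdown arrays were below all control arrays and 1 lay inside their range, with a log2 fold change of -0.18 (SE 0.12). MX2, a GTPase that blocks nuclear entry of retroviruses, read 439.4, 682.1 and 476.1 in control and 524.4, 545.3 and 449.8 in knockdown. Its relative MX1 was at background in both groups, with 21.3, 15.4 and 30.7 in control and 54.0, 11.2 and 36.6 in knockdown. The separation of the MX pair was thus seen on every array, as MX2 was above the limit and MX1 below it on all 6.

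IFI6, a small protein of mitochondria and the endoplasmic reticulum, read 180.8, 150.8 and 202.9 in control and 255.3, 199.1 and 214.6 in knockdown. Its knockdown values were mostly higher, with 1 inside the control range (log2 fold change 0.26, SE 0.13, adjusted p = 0.775 in limma). ISG20, an exonuclease, was just inside the limit in control at 98.1, 71.0 and 63.6, and read 44.0, 72.0 and 85.2 in knockdown. The 8 remaining induced genes, IFI27, IFI35, IFI44, IFI44L, MX1, RSAD2, SAMD9 and XAF1, were not above background in either group, with control means from 2.20 to 35.7 and knockdown means from 5.72 to 48.6.

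**Figure D2:**
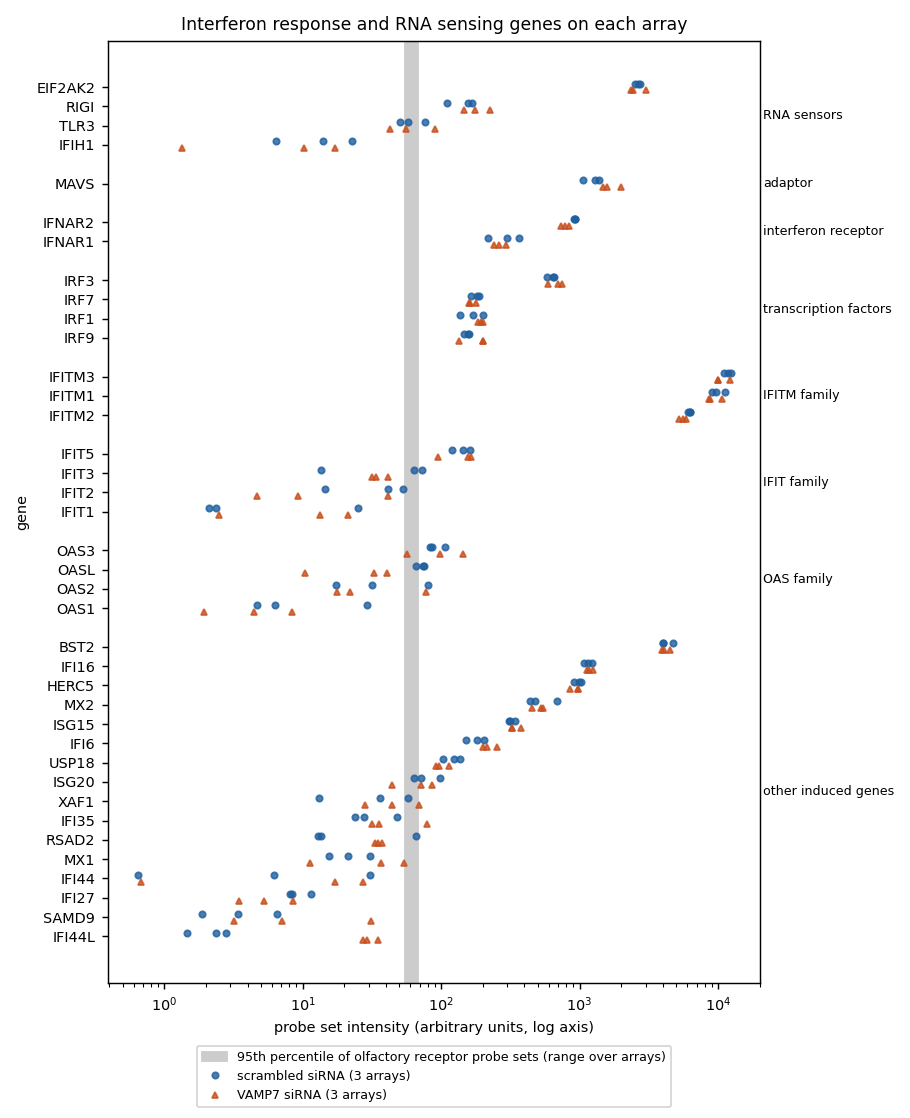
Intensity of each of the 38 measured members on each array (log axis, arbitrary units; blue circles, 3 scrambled siRNA arrays; orange triangles, 3 VAMP7 siRNA arrays), by role, for the probe set of highest mean. The grey band is the background limit, 54.9 to 67.5 over the 6 arrays; the IFITM genes, BST2 and EIF2AK2 lie far to its right, and IFI44L, SAMD9 and IFI27 to its left on all 6.

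IFI44L, a gene often used as a marker of interferon exposure, had the smallest p of all members, at signals below background. It read 1.45, 2.36 and 2.78 in control and 29.2, 27.2 and 35.1 in knockdown. The groups did not overlap, but all 6 values were under the lowest background limit of 54.9, and no second probe set names this gene. The log2 fold change after adding 50 was 0.62 (SE 0.09, 95% interval 0.41 to 0.84, unadjusted p = 0.000218, adjusted p = 0.461 in limma). It was 1.35 with 16 added and 0.35 with 100 added, so its size rests on the offset. Its neighbour and relative IFI44 had overlapping groups, with control values of 6.18, 30.5 and 0.641 and knockdown values of 27.4, 17.2 and 0.674.

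No member was called between knockdown and control, in a comparison that called 0.00506% of all genes. Limma called 0 of 38 members at an adjusted p under 0.05, with a smallest adjusted p of 0.461. At an unadjusted p under 0.05 there were 4, against 6.66% of all genes. IFI44L and MAVS were the 2 higher (3.63% of all genes) and OASL and IFNAR2 the 2 lower (3.03% of all genes). The groups did not overlap for 5 of 38, which adds IFITM2, against 13.0% of all genes. Of these 2 were higher and 3 lower, against 6.68% and 6.29% of all genes. Among the 22 members above background in control the groups of 3 did not overlap, against 15.0% of all genes above background. With 3 arrays in each group, the smallest two-sided p that exact permutation allows is 0.1.

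The log2 fold changes of the members had a median of -0.023, against 0.003 over all genes tested, and 18 of 38 lay above 0, against 50.8% of all genes. Induced genes had a median of -0.039 with 12 of 27 above 0, and sensing and signalling genes 0.002 with 6 of 11 above 0. For the 22 members above background in control, the values ran from -0.22 for IFNAR2 to 0.42 for MAVS. On the log2 scale with the offset added, every 95% interval of these lay within a 2-fold change in either direction. For 20 of the 22 it lay within a 1.5-fold change on that scale, against 84.8% of all genes above background. RIGI and MAVS were the exceptions, with upper bounds of 0.66 and 0.78. Over all 38 members the interval of 37 lay within 2-fold on that scale, against 96.9% of all genes, OASL being the other. The offset compresses values at background, and also those of dim members above it such as ISG20, OAS3 and IFIT5. The intervals of such genes bound the change in intensity less. ISG20, for example, had a lower bound of -0.53 at a control mean of 77.6.

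**Figure D3:**
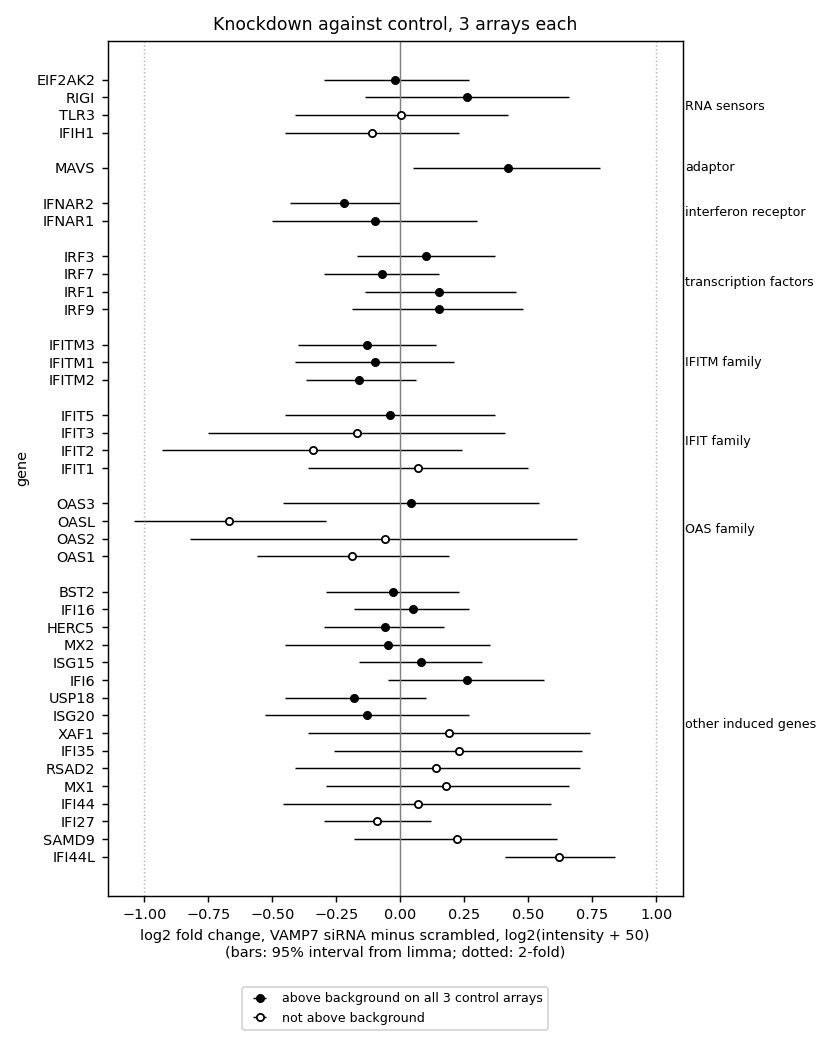
Log2 fold change of each measured member, VAMP7 siRNA minus scrambled siRNA, on the log2(intensity + 50) scale, with 95% intervals from limma (bars, 3 arrays a group). Filled points are above background on all 3 control arrays and lie between -0.22 and 0.42; the 2 points farthest from 0, IFI44L at 0.62 and OASL at -0.67, are open.

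Members with several probe sets showed how far single values can be read. Of the 21 members with over 1 probe set, 12 had all of them on the same side of 0. The groups did not overlap for 9 of the 71 probe sets, 4 higher and 5 lower, against 12.5% of all probe sets tested. MAVS had 2 of the 4 that were higher. The others were IFI44L and a second OAS1 probe set, which read under background. Knockdown replicate 1 held the highest value for 6 of the 22 members above background in control (27.3%), against 28.6% of all genes above background. It held the lowest for 5 of the 22 (22.7%), against 24.2%.

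**Figure D4:**
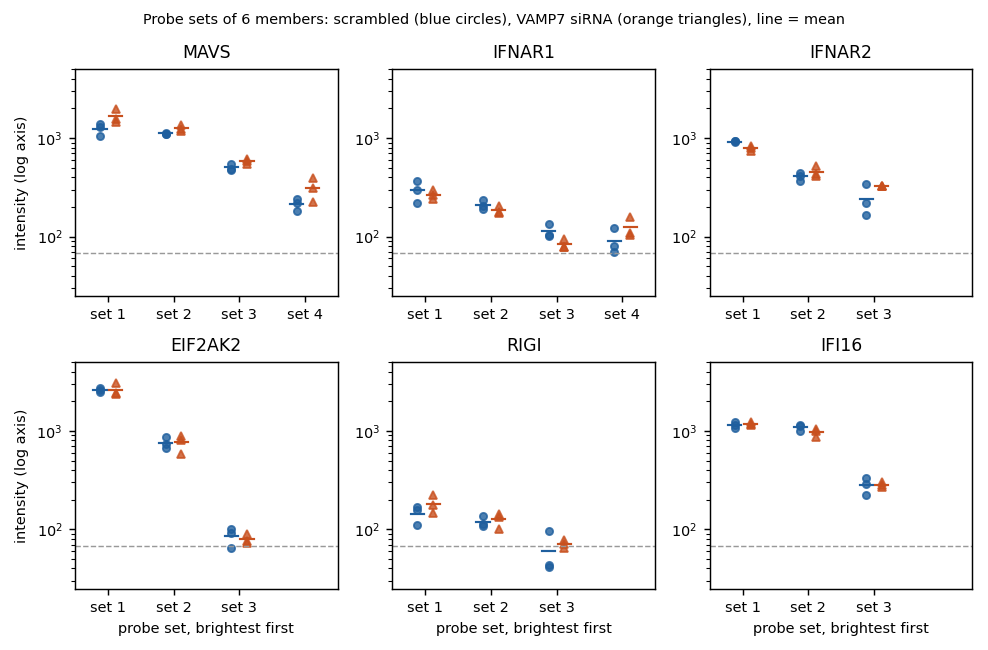
Intensity (log axis) of every probe set of 6 members above background, numbered from the brightest in control, with each array as a point (blue circles, 3 scrambled; orange triangles, 3 VAMP7 siRNA) and the group mean as a line. The dashed line is the highest background limit, 67.5; all 4 MAVS means are higher in knockdown, while those of IFNAR1 and IFNAR2 move both ways.

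Transcripts of the interferons themselves were not seen above background. Of 18 measured interferon genes, 0 were above background in control and 0 in knockdown, and the highest value on any array was 54.9, for IFNW1. IFNB1, the first interferon made after RNA sensing, read 13.5, 4.73 and 1.35 in control and 27.8, 4.52 and 2.82 in knockdown. Limma called 0 of them, with 1 at an unadjusted p under 0.05, against 6.66% of all genes. The 2 of smallest p were IFNA5 at 0.38 (SE 0.15) and IFNA7 at -0.30 (SE 0.16), both under the limit on every array.

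The downstream kinases and other receptors were present. Of 12 such genes 11 were above background in control, JAK2 being the other. Limma called 0, and 0 had an unadjusted p under 0.05, against 6.66% of all genes. The 2 of smallest p were JAK1, a kinase bound to the interferon receptor, at -0.20 (SE 0.12) and IFNGR1, a receptor chain for interferon gamma, at -0.23 (SE 0.16). Averaging the probe sets of JAK1 turned it to 0.03.

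Among 38 other genes of nucleic acid sensing, 29 (76.3%) were above background in control. Limma called 0, with 2 higher and 1 lower at an unadjusted p under 0.05, against 3.63% and 3.03% of all genes. CGAS, the cytosolic DNA sensor, read 111.3, 82.4 and 98.2 in control and 160.2, 167.4 and 142.2 in knockdown. All knockdown arrays of CGAS were higher, with a log2 fold change of 0.49 (SE 0.11, unadjusted p = 0.00315, adjusted p = 0.552 in limma), or 0.20 with the mean of its probe sets. NOD2, a sensor of bacterial wall fragments, was at -0.44 (SE 0.12) and under the limit on every array.

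Of 60 other interferon-stimulated genes, 32 (53.3%) were above background in control and 32 in knockdown. Their median log2 fold change was -0.021, with 24 of 60 above 0, and limma called 0. At an unadjusted p under 0.05, 1 of 60 was higher and 5 were lower, against 3.63% and 3.03% of all genes. SP110, a nuclear body protein, read 210.4, 280.0 and 203.4 in control and 167.6, 135.9 and 155.8 in knockdown. All knockdown arrays of SP110 were lower (log2 fold change -0.46, SE 0.13, adjusted p = 0.638 in limma), but the mean of its probe sets gave -0.07. CCL5, a chemokine, was at -0.61 (SE 0.20) and under the limit on every array, and the mean of its probe sets gave -0.22.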

How the data were processed

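RNA from 6 arrays, 3 of control and 3 of knockdown cells, was analysed. The deposited values were linear intensities, 1 per probe set. After leaving out 2% at each end, the trimmed mean averaged 500.07 over the 6 arrays, so the authors appear to have scaled them. The submitters' processing notes name RMA, whose log2 output these values are not, and the background correction behind them is unstated in the labels. The titles call the arrays biological replicates 1 to 3 of each group, but in the description field each of the 3 knockdown arrays is numbered 1. The titles' numbers were used. Separate cultures or days are not named, so p-values cover only how far these samples spread.

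The platform annotation named the probe sets, with symbols brought up to date by identifier from a GRCh38.p14 table (99.87% of single-gene probe sets matched). The probe set of highest mean stood for its gene. An offset of 50 was added before log2, and limma 3.58.1 (R 4.3.3) was fitted over 19775 genes with lmFit, eBayes and Benjamini-Hochberg adjustment. The log2 fold changes understate changes of dim genes. Simulated arrays were used to test the code. The number of arrays limits the precision.

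The members and lists were chosen with earlier results of these data known. Array values are given for members above background in control and the 8 of smallest p, and the 2 genes of smallest p are named from each pathway list. IFIH1, TLR3, MX1 and IFI44 were added for their role, IFNB1 likewise. Same-numbered replicates did not deviate together (correlations -0.00548, 0.0134 and -0.0141). Alternatives covered offsets, quantile normalization, a filter on dim genes, other uses of probe sets, an intensity trend, the replicate number as a block, each array left out, and other background limits.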

Additional observations from a re-analysis of the deposited data

How the results depend on the processing

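VAMP7 was called in all 14 alternatives, and 0 of the members in any. With an offset of 16 and with the mean of probe sets, limma called 2 genes in place of 1, the second being C19orf73, which is no member. With the replicate number as a block, which the data do not bear out as a pairing, 1 gene and 0 members were called, and VAMP7 stayed at -3.71. The count of members whose groups do not overlap, 5, was 3 among the 13 members at or above the median signal and 9 of 71 with all probe sets. With 1 array left out it ran from 7 to 10, since fewer arrays separate more easily. The matching share of all genes was not worked out for the 13 members or for the arrays left out. The 13.0% given above is for 3 against 3 arrays over all genes. Whether the counts of 3 and of 7 to 10 are ordinary was therefore not tested. The median of the members lay between -0.047 and 0.01. The count of members above background in control was 20 at the 99th percentile, 24 at the 90th and 24 against keratin-associated protein genes, in place of 22.

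The sign was followed for 39 genes, which are not the 39 members. They were part of the members, some genes of the other lists and VAMP7, and did not cover every gene named above. Of these 39 genes, 10 changed sign in some alternative, and all of the 10 except JAK1 were members. With the mean of probe sets IFI16 was at -0.03, IFNAR2 at 0.11, JAK1 at 0.03 and OAS3 at -0.10. With 1 array left out, values crossed 0 for BST2 (-0.09 to 0.05), EIF2AK2 (-0.13 to 0.05), IFI16 (-0.00087 to 0.09), IFIT5 (-0.14 to 0.14), IFNAR1 (-0.27 to 0.05), ISG20 (-0.24 to 0.02), MX2 (-0.16 to 0.13) and OAS3 (-0.17 to 0.26). The cause was not tested. Signals under the background limit give no order of level.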

Other observations

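Genes of antigen presentation that interferon also raises were looked at after their values had been seen. B2M, the light chain of class I molecules, read 8739, 8625 and 9546 in control and 8149, 7461 and 7887 in knockdown, so that all knockdown arrays were lower (log2 fold change -0.19, SE 0.09, adjusted p = 0.772 in limma). PSMB10, an immunoproteasome subunit, read 295.9, 239.0 and 266.8 in control and 163.6, 195.6 and 233.0 in knockdown, again without overlap (log2 fold change -0.36, SE 0.13, adjusted p = 0.728 in limma). The transporter subunit TAP2 had overlapping groups and was at 0.13 (SE 0.16), and its partner TAP1, with PSMB8 and PSMB9, was not above background in control. None of these genes was called, and groups did not overlap for 13.0% of all genes.

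Of the enzymes that work with ISG15, also chosen after their values were seen, UBE2L6 (which passes it to ligases) read 2057, 1907 and 2025 in control and 1429, 1991 and 2114 in knockdown, with knockdown replicate 1 the lowest array. TRIM25, a ligase that also acts on RIG-I, read 264.9, 267.2 and 232.1 in control and 295.4, 319.7 and 321.1 in knockdown, where all knockdown arrays were higher (log2 fold change 0.25, SE 0.10, adjusted p = 0.728 in limma).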
